A study of Homo sapiens with 64 samples.

Results

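HT55 is a human colorectal carcinoma line of the colorectal cancer subtype CCS1. Here the label-retaining cells (LRCs) of its spheroids were compared with the cycling cells of the same cultures (non-LRCs, called BULK in the sample labels). The samples were chosen by their labels alone, as the sorted samples of HT55, and make up 8 of the 64 samples in the series, with 4 LRC and 4 non-LRC samples that share the replicate numbers 1 to 4. All 8 came from untreated, nonadherent, serum-free spheroid culture with EGF and bFGF. The study's methods give its cell lines incubators with an oxygen level below that of air. The cells had been loaded with CFSE, a dye whose brightness falls as cells divide, and were sorted by flow cytometry on day 6 into CFSE-bright LRCs and the CFSE-low bulk. The groups were thus set by the dye gate: a bright cell had divided little in culture, and the gate itself says nothing of why. Same-numbered samples were treated as pairs, and the counts of genes are given with all 4 pairs and without replicate 2, whose samples stood apart from the rest.

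Cells that stop dividing can do so in several ways. Cyclin-dependent kinase inhibitors such as p21, p27 and p57 hold cells in G1, and antiproliferative genes of the BTG family and the MXD and MXI1 repressors, which compete with MYC for its partner MAX, accompany exit from the cell cycle in many tissues. In the intestinal epithelium, proliferation is kept in the crypt by Wnt signaling, and cells that leave it take on absorptive genes (ion transporters, brush border enzymes) or secretory genes (mucins, trefoil factors). Dense spheroids are also known to hold poorly perfused cells, in which hypoxia-inducible factor switches on glycolytic enzymes and glucose transporters, and amino acid shortage activates the transcription factor ATF4.

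The 8 samples held 14813805 to 20913455 reads on genes, and expression is given here as CPM, the reads of a gene relative to all reads on genes, scaled by the trimmed mean of M values (TMM). All 14 markers of colorectal epithelium examined, among them EPCAM, CDH1, KRT8 and VIL1, were expressed, with a summed level of 12993 to 16968 CPM in LRCs and 13095 to 17562 CPM in non-LRCs. Of 18 markers of other cells, 5 (among them CD3E, HBB, COL3A1 and S100B) had no count in any sample, and the leukocyte gene PTPRC had 1 count in all. The summed level of the 18 was 60.2 to 104 CPM in LRCs and 62.8 to 81.6 CPM in non-LRCs, most of it from LYZ and CD68, which epithelial cells also express. The markers thus fitted the label of a colorectal epithelial line.

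Both samples of replicate 2 differed from the other 6. Their LRCs and non-LRCs were the most alike of the 4 same-numbered pairs, with a Pearson's r of 0.994 across genes, against a lowest r of 0.984 among these pairs. Their counts differed by a chi-square of 3.73 per gene, where sampling alone gives a value near 1. This was the lowest value between any of the 8 samples. Samples of the same population had 4.18 to 17.1 among LRCs 1, 3 and 4 and 7.92 to 16.2 among non-LRCs 1, 3 and 4. Mitochondrially encoded genes took 11.4% of the counts of the LRCs and 11.2% of those of the non-LRCs of replicate 2, and 8.15% to 9.87% in the other 6 samples. The standard deviation over genes of the log2 difference between LRCs and non-LRCs was 0.27 in pair 2 and 0.44, 0.36 and 0.38 in pairs 1, 3 and 4. Across genes, the differences in pair 2 had an r of -0.17, 0.015 and -0.094 with those in pairs 1, 3 and 4, while pairs 1, 3 and 4 had an r of 0.40 to 0.61 with each other. The LRCs and non-LRCs of replicate 2 both had a higher mean r with the other LRCs (0.984 and 0.985) than with the other non-LRCs (0.979 and 0.978). Whether culture, labeling or sorting of replicate 2 differed was not tested.

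**Figure D1:**
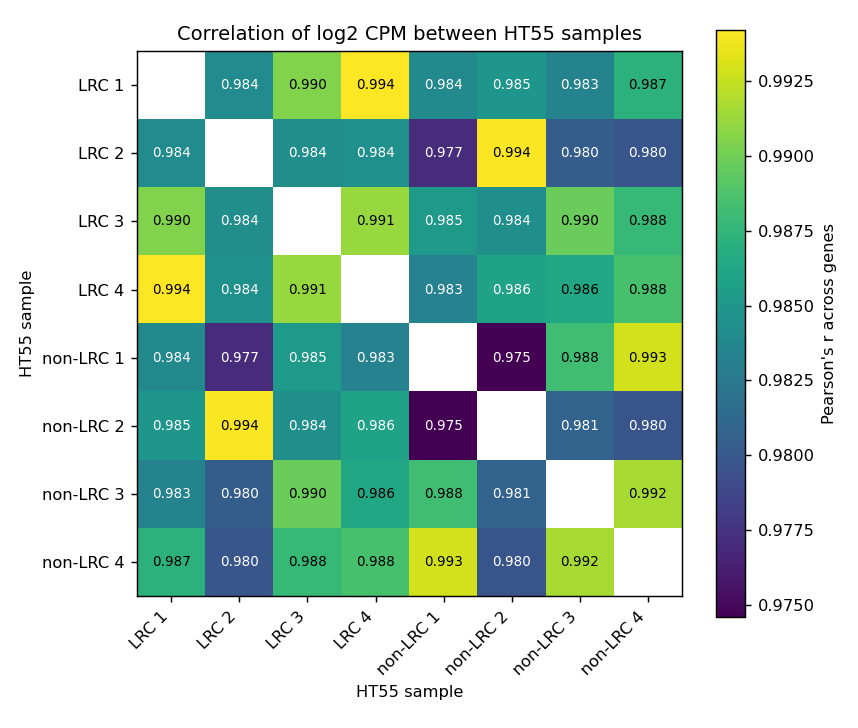
Pearson's r across genes of log2 CPM for each pair of the 8 HT55 samples, with LRCs 1 to 4 and then non-LRCs 1 to 4 on both axes and the color scale giving r. The LRCs and non-LRCs of replicate 2 had an r of 0.994 with each other, and both had lower r with samples of the other replicates than those had within their own population.

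With all 4 pairs, no gene passed edgeR's test. Its quasi-likelihood test with the pair as a block called 0 of 13391 genes (0%), with a smallest adjusted p of 0.136, while 2055 genes (15.3%) had an unadjusted p under 0.05, of which 1144 were higher in LRCs (8.54%) and 911 lower (6.8%). Other tools called more with the same 8 samples: DESeq2 called 217 genes, and limma voom with sample weights, which gave the samples of replicate 2 weights of 0.57 and 0.52, called 1620. Without replicate 2, edgeR called 1763 of 13182 genes (13.4%), with 1070 higher in LRCs (8.12%) and 693 lower (5.26%). All 217 genes called by DESeq2 with the 8 samples were among these 1763. Below, a gene rose, fell or passed by edgeR's adjusted p unless another tool is named, and counts over a list are to be read against these shares of all genes. Leaving out replicate 1, 3 or 4 in its place gave 0 calls each time, with 1229, 1057 and 900 genes at an unadjusted p under 0.05. Scaling by library size without TMM left 1690 calls without replicate 2, of which 863 were higher in LRCs.

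Changes were mostly small. Of the 1763 genes called without replicate 2, 175 were more than 1 log2 unit higher and 20 more than 1 log2 unit lower in LRCs. The 1070 genes that rose had a median log2 fold change of 0.49, and in pair 2 these genes had a median log2 difference of -0.047, with 375 of them (35.0%) higher in LRCs. The 693 genes that fell had a median of -0.39, and a median of 0.048 in pair 2, with 260 (37.5%) lower in LRCs. On a scale where 0 is the mean of the other non-LRCs and 1 the mean of the other LRCs, the LRCs of replicate 2 lay at 0.79 for the risen genes and 0.73 for the fallen ones (medians), and its non-LRCs at 0.87 and 0.94. Both samples of replicate 2 thus lay nearer to the LRCs at most of these genes.

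**Figure D2:**
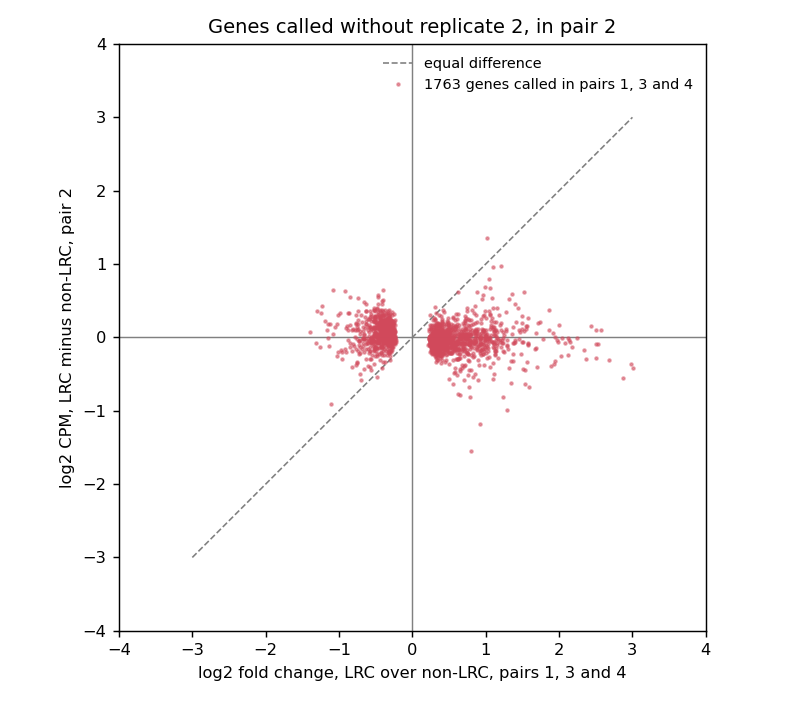
Each point is 1 of the 1763 genes called without replicate 2, with the log2 fold change of LRCs over non-LRCs in pairs 1, 3 and 4 on the x axis and the log2 CPM difference within pair 2 on the y axis. Points spread along the x axis and lie near 0 on the y axis, far from the dashed line of equal difference.

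The 20 genes with the smallest p-values among those with the same direction in all 4 pairs are given first, since their direction does not depend on leaving out replicate 2; none of them passed with edgeR and 4 pairs, while DESeq2 called 19 and voom all 20. Over all genes, 1179 were higher in LRCs in all 4 pairs (8.8%) and 1492 lower (11.1%), and 203 (1.52%) had all 4 LRC samples above all 4 non-LRC samples and 210 (1.57%) all 4 below. A gene whose 4 LRC and 4 non-LRC samples did not overlap is to be read against these last shares. GCNT1 (ENSG00000187210, chr9:79034766-79266119, plus strand, GRCh37), which builds the branched core of mucin-type O-glycans, had the smallest p-value among genes higher in LRCs. It stood at 56.1, 54.7, 57.5 and 46.8 CPM in LRCs 1 to 4 and at 31.9, 43.5, 30.6 and 27.2 CPM in non-LRCs 1 to 4. The groups did not overlap, with a log2 fold change of 0.71 (SE 0.10, edgeR adjusted p = 0.136) over 4 pairs and 0.84 (SE 0.088, adjusted p = 5.49e-06) without replicate 2. HPGD, which inactivates prostaglandins, was higher in LRCs in each pair, with 7.16, 11.4, 4.75 and 5.51 CPM in LRCs and 2.35, 7.51, 1.49 and 3.0 CPM in non-LRCs. Here the groups overlapped, because both samples of replicate 2 were above their groups. The other 8 on this side were ELF3-AS1, ANGPTL4, LY6G6C, HIGD1A, MXD1, VLDLR, SLC6A20 and EVX1, with log2 fold changes of 0.43 to 1.44 over 4 pairs. All 10 rose without replicate 2, by 0.49 (HIGD1A, a hypoxia-induced mitochondrial protein) to 1.69 (ANGPTL4, a secreted inhibitor of lipoprotein lipase). ELF3-AS1 overlaps the region of ELF3, and whether the counting used strand is not given in the sources used here, so its reads could not be told from those of ELF3.

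Among genes lower in LRCs, FADS2 (chr11:61560452-61634826, plus strand, GRCh37), a desaturase of polyunsaturated fatty acids, had the smallest p-value, and its difference in pair 2 lay within the range of the other pairs. Its CPM were 22.5, 12, 16.8 and 26.9 in LRCs and 29.5, 17.5, 23.1 and 40.0 in non-LRCs. The groups overlapped because the level differed between replicates, but each LRC sample was below its own non-LRC sample, and the log2 fold change was -0.49 (SE 0.080, adjusted p = 0.136) with 4 pairs and -0.48 (SE 0.10, adjusted p = 0.00271) without replicate 2. NLRC5, an activator of MHC class I genes, stood at 21.1, 24.2, 21.5 and 24.3 CPM in LRCs and at 36.8, 27.4, 34.4 and 41.1 CPM in non-LRCs, so that the groups did not overlap. The other 8 were FLNC, SLC9A3, SIT1, HOXA-AS3, ANXA13, PP7080, FSCN1 and F5, with log2 fold changes of -0.54 (SIT1) to -1.02 (SLC9A3). All 10 fell without replicate 2. FSCN1 and FLNC, which bundle and cross-link actin, fell by 0.91 and 0.76 on the log2 scale.

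**Figure D3:**
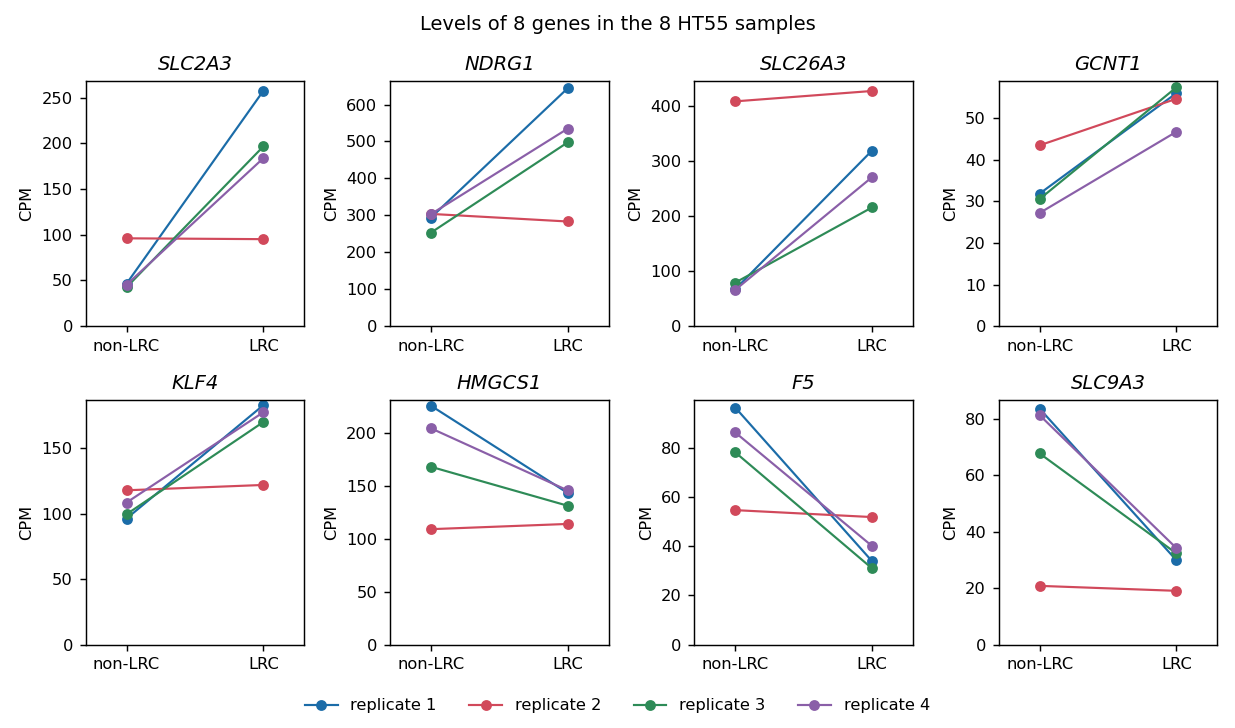
CPM of 8 genes in the 8 HT55 samples, with non-LRCs on the left and LRCs on the right of each panel and a line joining the samples of each replicate. Replicates 1, 3 and 4 move together in all 8 panels, while the line of replicate 2 is nearly flat for SLC2A3, NDRG1, SLC26A3, KLF4, HMGCS1, F5 and SLC9A3 and rises for GCNT1.

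Of the 5 genes with the smallest p-values among those that rose without replicate 2, the first 3 were transporters. SLC2A3 (ENSG00000059804, chr12:8071826-8171603, minus strand, GRCh37), the high-affinity glucose transporter GLUT3, stood at 257, 95.0, 197 and 184 CPM in LRCs 1 to 4 and at 46.3, 96.0, 42.4 and 45.2 CPM in non-LRCs. Without replicate 2 it rose by 2.24 on the log2 scale (SE 0.092, adjusted p = 1.04e-10), and both samples of replicate 2 lay between the groups. With 4 pairs the log2 fold change was 1.70 (SE 0.34, adjusted p = 0.136). SLC2A3 has a close paralog, SLC2A14, and reads shared by both could have been left out or split. SLC3A1, a subunit of the cystine and basic amino acid transporter, stood at 105, 86.5, 91.0 and 84.1 CPM in LRCs and at 20.3, 86.9, 27.9 and 20.4 CPM in non-LRCs. SLC26A3 (chr7:107405912-107443670, minus strand, GRCh37), the chloride and bicarbonate exchanger of colonocytes, stood at 319, 427, 216 and 271 CPM in LRCs and at 67.1, 409, 78.9 and 65.8 CPM in non-LRCs. Without replicate 2 the 2 genes rose by 2.03 and 1.92. In replicate 2 the non-LRC sample was within the range of the other LRCs for SLC3A1 and above it for SLC26A3. ADM, a secreted vasodilator peptide, differed: its 51.8, 48.7 and 47.2 CPM in LRCs 1, 3 and 4 were above the 20.2 CPM of LRC 2 and the 17.5 to 21.1 CPM of all 4 non-LRCs. H2BC21, a histone H2B gene with near-identical copies, had 108, 96.1, 101 and 113 CPM in LRCs and 45.7, 97.9, 47.8 and 50.5 CPM in non-LRCs.

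Among the falling genes without replicate 2, F5 (ENSG00000198734, chr1:169481189-169555826, minus strand, GRCh37), coagulation factor V, stood at 33.9, 51.8, 30.9 and 40.0 CPM in LRCs and at 96.3, 54.6, 78.1 and 86.2 CPM in non-LRCs. SLC9A3 (ENSG00000066230, chr5:470571-524564, minus strand, GRCh37), the sodium and proton exchanger of the brush border, stood at 29.9, 19.1, 32.3 and 34.2 CPM in LRCs and at 83.7, 20.8, 67.8 and 81.4 CPM in non-LRCs. All LRCs were below all non-LRCs in F5, while the low value of non-LRC 2 gave an overlap in SLC9A3. Without replicate 2, F5 fell by 1.31 (SE 0.091, adjusted p = 9.92e-08) and SLC9A3 by 1.26 (SE 0.092, adjusted p = 1.5e-07) on the log2 scale. PP7080 and the unnamed genes ENSG00000252666 and ENSG00000243172 were the other 3 of the 5 with the smallest p-values, at log2 fold changes of -0.85, -0.90 and -0.81. PP7080 (chr5:466239-473213, minus strand, GRCh37) overlaps SLC9A3 on the same strand. Strand could therefore not separate reads from the overlap, in this ranking or in that over 4 pairs.

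**Figure D4:**
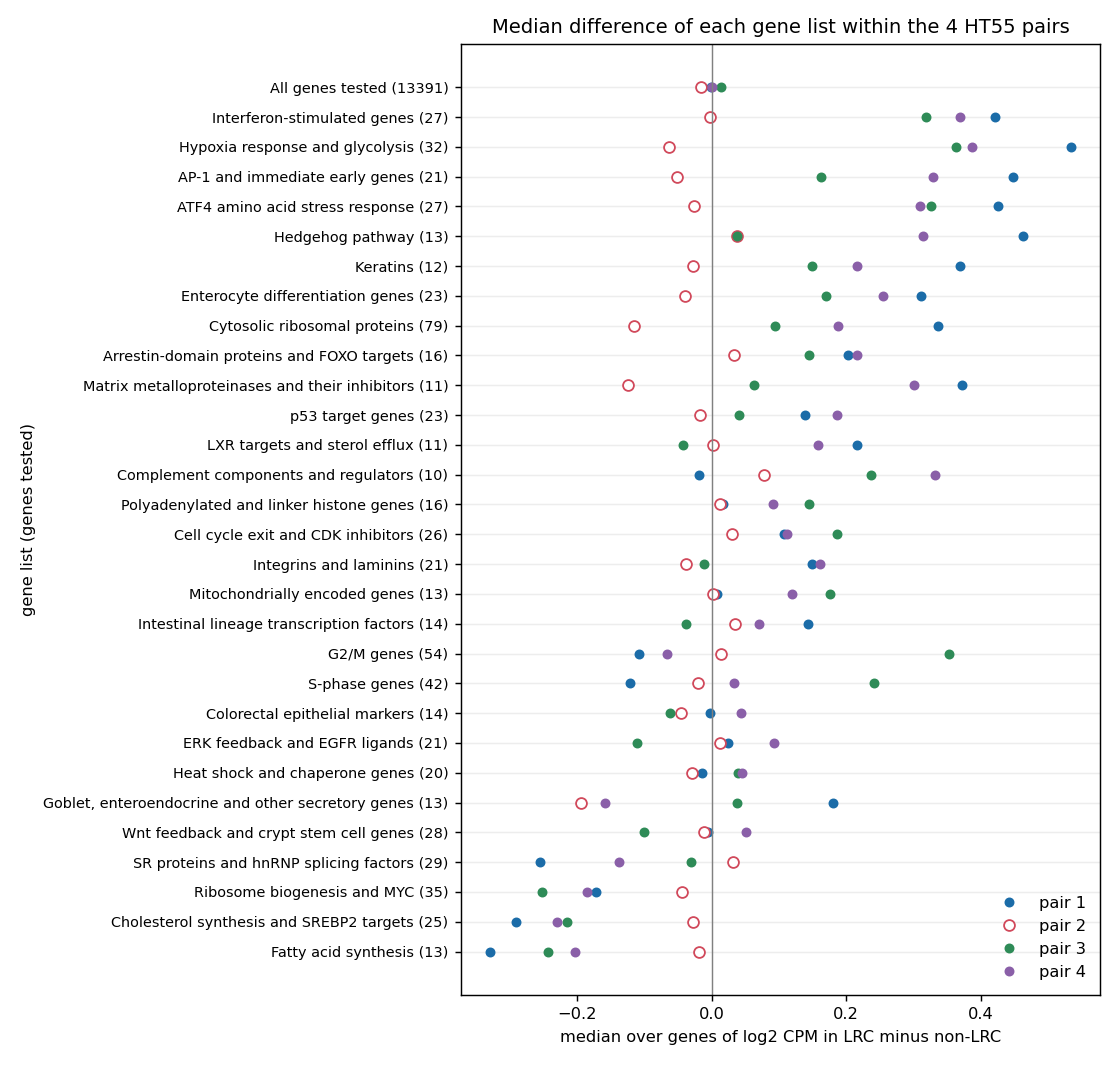
Median over the tested genes of each list (number in brackets) of the log2 CPM difference between LRCs and non-LRCs, with 1 point for each of the 4 pairs and all genes tested in the top row. Pair 2, drawn as open circles, stays near 0 in most lists, while pairs 1, 3 and 4 lie on one side of 0 for hypoxia response, ATF4 and interferon genes above it and for cholesterol and fatty acid synthesis below it.

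Genes of the hypoxia response and glycolysis were higher in LRCs of replicates 1, 3 and 4. Without replicate 2, 21 of 32 members rose and none fell (65.6%, against 13.4% of all genes), with a median log2 fold change of 0.41. Over the 4 pairs, edgeR called none, DESeq2 7 and voom 20, all higher in LRCs. By edgeR 21 had an unadjusted p under 0.05 in the higher direction (8.54% of all genes), and 7 were higher in LRCs in all 4 pairs (8.8% of all genes). The mean log2 CPM of the list was 7.04 to 7.11 in LRCs 1, 3 and 4 and 6.55 to 6.6 in non-LRCs 1, 3 and 4, and 6.34 and 6.39 in LRC 2 and non-LRC 2, below both. The members that rose covered glucose transport (SLC2A3, SLC2A1), glycolysis and lactate formation (HK2, GPI, ALDOA, ALDOC, TPI1, PGK1, ENO2, LDHA), oxygen sensing (EGLN3, which hydroxylates hypoxia-inducible factor), collagen hydroxylation (P4HA1, P4HA2) and angiogenesis (VEGFA).

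SLC2A1, the glucose transporter GLUT1, stood at 8110.0, 4669, 6642 and 8519 CPM in LRCs and 5219, 4887, 5111 and 6028 CPM in non-LRCs. It rose by 0.51 on the log2 scale without replicate 2 (SE 0.071, adjusted p = 0.000116). NDRG1, a stress-responsive gene of differentiation, stood at 644, 283, 497 and 535 CPM in LRCs and at 294, 304, 253 and 303 CPM in non-LRCs. LRC 2 had the level of the non-LRCs, and the other 3 LRCs lay above all 4. VEGFA followed the same order, with 384, 189, 314 and 344 CPM in LRCs and 208, 196, 173 and 209 CPM in non-LRCs. EGLN3 stood at 77.6, 14.9, 62.4 and 68.9 CPM in LRCs and at 39.1, 15.1, 30.5 and 39.2 CPM in non-LRCs, so that both samples of replicate 2 were below every other sample. P4HA1 stood at 137, 72.7, 117 and 113 CPM in LRCs and at 76.2, 68.7, 59.6 and 67.3 CPM in non-LRCs and was higher in LRCs in all 4 pairs. LDHA, the enzyme that makes lactate, rose by 0.48 (SE 0.072, adjusted p = 0.000241) without replicate 2. Several glycolytic genes (LDHA, PGK1, TPI1, ALDOA) have processed copies elsewhere in the genome, and their counts are uncertain to that extent.

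The core of the hypoxia response element, ACGTG, was looked for on both strands of the promoters of this list, taken from RefSeq (GRCh38.p14) as 250 bases before to 50 after the start. It stood in 13 of the 28 members with a promoter (46.4%) and in 5900 of 27305 promoters of all genes (21.6%). It was chosen with the values known, and the palindrome CACGTG, the E-box, holds it on both strands. Among the risen members grouped by function above, HK2, GPI, ALDOA, ALDOC, PGK1, ENO2, LDHA and P4HA1 held the motif. SLC2A1, TPI1, EGLN3 and P4HA2 did not, and SLC2A3 and VEGFA had no promoter in the set. Whether the motif goes with the rise was not tested. The windows of 3 members that rose are printed because they show the motif alone, doubled and as an E-box, with the matched letters in capitals and read 5′ to 3′ along the strand of the gene. They lie at chr10:73096918-73096982 (minus strand) for P4HA1, chr4:185396649-185396732 (plus strand) for ANKRD37 and chr11:18394348-18394524 (plus strand) for LDHA.
P4HA1: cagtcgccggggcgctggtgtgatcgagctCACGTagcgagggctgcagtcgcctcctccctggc
ANKRD37: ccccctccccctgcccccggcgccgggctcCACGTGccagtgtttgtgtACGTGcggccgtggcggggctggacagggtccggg
LDHA: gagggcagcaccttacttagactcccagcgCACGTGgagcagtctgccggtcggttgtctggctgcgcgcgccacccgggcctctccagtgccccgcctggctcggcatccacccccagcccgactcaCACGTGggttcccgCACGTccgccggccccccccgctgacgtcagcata

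Genes of the ATF4 response to amino acid shortage rose beside them. Without replicate 2, 15 of 27 rose and 1 fell (8.12% and 5.26% of all genes), with a median log2 fold change of 0.32. By adjusted p over 4 pairs, edgeR called none, DESeq2 called 7 higher and 1 lower, and voom 15 and 1. By edgeR 16 had an unadjusted p under 0.05 in the higher direction and 1 in the lower (8.54% and 6.8% of all genes), and 9 were higher and 1 lower in all 4 pairs (8.8% and 11.1% of all genes). Among the largest rises were those of PHGDH, the first enzyme of serine synthesis (1.53), STC2 (1.53) and CHAC1, which degrades glutathione (1.37). SESN2 (1.2), VLDLR (1.18) and DDIT3, which encodes CHOP (1.11), also rose, all on the log2 scale without replicate 2. DDIT3 stood at 24.8, 14.1, 22.7 and 20.5 CPM in LRCs and at 11.3, 13.4, 9.85 and 10.4 CPM in non-LRCs, so that the groups did not overlap. The cystine transporter SLC7A11, also an ATF4 target, was the member that fell, by 0.76 on the log2 scale (adjusted p = 1.91e-05), while its partner subunit SLC3A2 rose by 0.64.

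Among interferon-stimulated genes, without replicate 2, 12 of 26 rose and none fell (8.12% and 5.26% of all genes), with a median of 0.43. With 4 pairs edgeR called none of 27, DESeq2 1 and voom 10, all higher. By edgeR 14 had an unadjusted p under 0.05, all higher (8.54% of all genes), and 7 were higher and 2 lower in all 4 pairs (8.8% and 11.1% of all genes). IFIT1, an RNA-binding inhibitor of viral translation, had the largest difference, with 4.03, 1.31, 4.09 and 1.39 CPM in LRCs and 0.181, 1.78, 0.743 and 0.245 CPM in non-LRCs. Non-LRC 2 lay above LRCs 2 and 4, and without replicate 2 IFIT1 rose by 3.01 (SE 0.34, adjusted p = 1.33e-05). ISG15, a ubiquitin-like modifier, was higher in LRCs in all 4 pairs, at 4.51, 2.41, 4.56 and 3.04 CPM against 1.14, 1.46, 2.35 and 2.33 CPM. At these levels few reads stand behind a value, and the IFIT genes share sequence with each other.

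Immediate early genes are induced rapidly by growth factors and by stress. Without replicate 2, 12 of 21 AP-1 and immediate early genes rose and 2 (KLF2 and KLF6) fell, against 8.12% and 5.26% of all genes. Over the 4 pairs, edgeR called none, DESeq2 5 (all higher) and voom 12 higher and 2 lower. By edgeR 11 had an unadjusted p under 0.05 in the higher direction and 1 in the lower (8.54% and 6.8% of all genes), and 3 were higher in all 4 pairs and none lower (8.8% and 11.1% of all genes). FOS rose by 0.58, FOSB by 0.77, JUNB by 0.52 and CCN2, a target of YAP, by 1.36. DUSP1, a phosphatase that turns off MAP kinases, was higher in LRCs in all 4 pairs, at 102, 57.5, 68.3 and 124 CPM against 48.4, 53.3, 33.4 and 73.7 CPM. These genes also respond to cell dissociation and sorting, which both populations underwent, and the part of handling was not tested.

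Of 26 genes of cell cycle exit and CDK inhibitors tested, 10 rose and none fell without replicate 2, when 25 could be tested (8.12% and 5.26% of all genes). By adjusted p over 4 pairs, edgeR called none, DESeq2 4 and voom 9, all higher. By edgeR 8 had an unadjusted p under 0.05 in the higher direction and 1 in the lower (8.54% and 6.8% of all genes), and 6 were higher and 1 lower in all 4 pairs (8.8% and 11.1% of all genes). CDKN1C (chr11:2904443-2907005, minus strand, GRCh37), which encodes p57, stood at 21, 23.4, 20.4 and 24.6 CPM in LRCs and at 11.6, 20.9, 13.7 and 14.0 CPM in non-LRCs. Non-LRC 2 lay above LRC 3, and the log2 fold change was 0.60 (SE 0.12, adjusted p = 0.136) with 4 pairs and 0.75 (SE 0.11, adjusted p = 0.000144) without replicate 2. CDKN1A, which encodes p21, rose by 0.77, CDKN2B by 0.77 and CDKN2D by 0.41. MXD1 was higher in LRCs in all 4 pairs, at 179.6, 139, 159.9 and 158 CPM against 124, 125, 102 and 109 CPM, without overlap. MXI1 rose by 1.0, and CCND2, a D-type cyclin that the list holds for its expression in arrested cells, rose by 1.37. CDKN1B, which encodes p27, did not pass, with 71.4, 91.3, 82.2 and 70.4 CPM in LRCs and 76.6, 83.1, 71.6 and 74.7 CPM in non-LRCs.

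Few proliferation genes passed. Of 42 S-phase genes, edgeR and DESeq2 called none with 4 pairs and voom 2, both lower, while by edgeR 1 had an unadjusted p under 0.05 in the higher direction and 3 in the lower. Without replicate 2 the 2 members POLR1B and POLA1 fell. Of 54 G2/M genes, edgeR and DESeq2 called none with 4 pairs and voom 1, lower, and by edgeR 1 had an unadjusted p under 0.05, also lower. Without replicate 2, CDCA8 rose, by 0.34. Without replicate 2 the shares of both lists lay below those of all genes (8.12% and 5.26%). The median difference of the S-phase list was -0.12, -0.020, 0.24 and 0.033 in pairs 1 to 4, and that of the G2/M list was -0.11, 0.013, 0.35 and -0.067, so that the pairs differed in direction. MKI67, the proliferation marker Ki-67, was lower in LRCs in all 4 pairs, at 232, 215, 169.5 and 216 CPM against 251, 221, 222 and 250 CPM, and did not pass (adjusted p = 0.268 with 4 pairs and 0.0572 without replicate 2). MCM2, a subunit of the replicative helicase, had 37.3 to 45.7 CPM in LRCs and 37.7 to 50.5 CPM in non-LRCs, and its difference changed sign with the processing. In bulk RNA, fewer dividing cells and less RNA per dividing cell cannot be told apart, and the same holds for every list here.

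For genes of cholesterol synthesis, edgeR called none of the 25 with 4 pairs, DESeq2 3 and voom 12, all lower. By edgeR 10 had an unadjusted p under 0.05 in the lower direction (6.8% of all genes), and 12 were lower in LRCs in all 4 pairs (11.1% of all genes). Without replicate 2, 10 fell and none rose (5.26% and 8.12% of all genes), with a median of -0.24. LSS (chr21:47608055-47648738, minus strand, GRCh37), lanosterol synthase, stood at 63.4, 54.8, 56.6 and 67.4 CPM in LRCs and at 89.4, 56.1, 84.3 and 102 CPM in non-LRCs. Non-LRC 2 was below 3 of the LRCs, and the other 3 non-LRCs lay above all LRCs. Without replicate 2, LSS fell by 0.55, HMGCS1 by 0.50, SQLE by 0.45 and STARD4, a sterol carrier, by 0.57 on the log2 scale. SREBF2 was lower in LRCs in all 4 pairs without passing.

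LXR switches on sterol export when sterols are in excess: of 11 of its targets, 3 rose without replicate 2 and none fell (8.12% and 5.26% of all genes). With 4 pairs edgeR called none, DESeq2 2 and voom 3, all higher. By edgeR 3 had an unadjusted p under 0.05, all higher (8.54% of all genes), and 3 were higher in all 4 pairs and none lower (8.8% and 11.1% of all genes). ABCG1, a sterol exporter, stood at 30.4, 15.1, 23.4 and 26.3 CPM in LRCs and at 15.3, 14.3, 15.7 and 13.8 CPM in non-LRCs, and rose by 0.84 (adjusted p = 5.47e-05). MYLIP, a ubiquitin ligase, rose by 0.48, and ABCA1 by 0.46. In fatty acid synthesis, 6 of 13 fell without replicate 2 and none rose (5.26% and 8.12% of all genes). Among those that fell were FASN (by 0.46), SCD (by 0.28) and ACLY (by 0.23). Over the 4 pairs, edgeR called none, DESeq2 1 and voom 5, all lower. By edgeR 7 had an unadjusted p under 0.05, all lower, and 6 were lower in all 4 pairs and none higher (6.8% and 11.1% of all genes lower).

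A sterol regulatory element, TCACNCCAC on either strand, stood in 1 of the 18 cholesterol genes with a promoter in RefSeq (5.56%) and in 313 of 27305 promoters (1.15%). The 1 match was in SREBF2, the gene of the regulator of this pathway. The window that holds it, at chr22:41832942-41833010 (plus strand, GRCh38.p14), is printed with the match in capitals.
SREBF2: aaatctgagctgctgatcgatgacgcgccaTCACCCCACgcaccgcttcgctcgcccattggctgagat

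Of 35 genes of ribosome biogenesis and MYC, 18 were lower in LRCs in all 4 pairs and none higher (11.1% and 8.8% of all genes). Without replicate 2, 6 fell (5.26% of all genes) and none rose: UTP20 (by 0.51), RRS1 (by 0.47), POLR1A (by 0.41), POLR1B (by 0.36), NOLC1 (by 0.30) and WDR43 (by 0.26) were those that fell. With 4 pairs edgeR and DESeq2 called none and voom 8, all lower, and by edgeR 12 had an unadjusted p under 0.05, all lower (6.8% of all genes). MYC itself had 142, 242, 144 and 169 CPM in LRCs and 140.4, 261, 189 and 160.3 CPM in non-LRCs and did not pass. Of 29 SR proteins and hnRNPs, 7 fell without replicate 2, led by HNRNPA3 (by 0.51), and none rose (5.26% and 8.12% of all genes). By adjusted p over 4 pairs, edgeR called none, DESeq2 1 and voom 7, all lower. By edgeR 7 had an unadjusted p under 0.05 in the lower direction and 1 in the higher (6.8% and 8.54% of all genes). In all 4 pairs, 5 were lower and 1 higher (11.1% and 8.8% of all genes). HNRNPA3 stood at 127, 149, 144 and 129 CPM in LRCs and at 207, 146, 176 and 189 CPM in non-LRCs. Of the cytosolic ribosomal protein genes, 25 of 79 rose without replicate 2, by 0.24 to 0.37, and none fell (8.12% and 5.26% of all genes). With 4 pairs edgeR and DESeq2 called none and voom 10, all higher, and by edgeR 4 had an unadjusted p under 0.05, all higher (8.54% of all genes). In pairs 1, 3 and 4, 69 were higher in LRCs (24.5% of all genes), but none in all 4 pairs (8.8% of all genes), and the median difference in pair 2 was -0.12. Their counts are uncertain, because ribosomal protein genes have many processed copies.

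Of 23 genes of enterocyte differentiation, 10 rose and 2 fell without replicate 2 (8.12% and 5.26% of all genes), and 4 were higher and 3 lower in LRCs in all 4 pairs (8.8% and 11.1% of all genes). With 4 pairs edgeR called none, DESeq2 5 higher and 1 lower, and voom 9 and 2, and by edgeR 9 had an unadjusted p under 0.05 in the higher direction and 2 in the lower (8.54% and 6.8% of all genes). KLF4 (chr9:110247133-110252763, minus strand, GRCh37), a regulator of the terminal differentiation of colonic epithelium, stood at 183, 122, 169.9 and 177 CPM in LRCs and at 96.2, 118, 99.5 and 108 CPM in non-LRCs. Its groups did not overlap, and it rose by 0.80 (SE 0.078, adjusted p = 2.6e-06) without replicate 2, with a log2 fold change of 0.62 (SE 0.12, adjusted p = 0.136) over 4 pairs. CEACAM7, a marker of surface colonocytes, rose by 2.67, AQP8, a water channel of the same cells, by 2.51, and CDHR5, a brush border protocadherin, by 0.71. AQP8 was low, with a mean of 2.22 CPM in LRCs 1, 3 and 4 and 0.385 CPM in the non-LRCs. SLC9A3 and KRT20 were the members that fell. KRT20, a keratin of differentiated colonocytes, stood at 459, 399, 441 and 508 CPM in LRCs and at 608, 387, 532 and 616 CPM in non-LRCs, and fell by 0.32 (adjusted p = 0.00667) without replicate 2. The list mean in LRC 2 and non-LRC 2 (6.15 and 6.2 log2 CPM) was above that of the other non-LRCs (5.81 to 5.94) and near the lowest of the other LRCs (6.17 to 6.38).

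Of 13 secretory genes, 3 rose (TFF2, TFF3 and MUC13) and AGR3 fell without replicate 2, against 8.12% and 5.26% of all genes. Neither edgeR nor DESeq2 called any with 4 pairs, and voom called 3 higher and 1 lower. By edgeR 3 had an unadjusted p under 0.05 in the higher direction and 2 in the lower (8.54% and 6.8% of all genes). In all 4 pairs, 4 were lower and none higher (11.1% and 8.8% of all genes). TFF2, a trefoil peptide, stood at 17.9, 3.09, 17.8 and 13.5 CPM in LRCs and at 4.81, 5.03, 4.58 and 6.98 CPM in non-LRCs, so that LRC 2 was the lowest of all 8 samples. The goblet cell mucin MUC2 was low, at 2.20 to 4.51 CPM in LRCs and 2.04 to 4.47 CPM in non-LRCs, and its difference changed sign with the processing. Among 14 lineage transcription factors, 3 rose without replicate 2 (8.12% of all genes), among them ELF3 by 0.73 and FOXA3 by 0.32. CDX2 did not pass, with 259 to 282 CPM in LRCs and 229 to 289 CPM in non-LRCs.

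Of 28 Wnt targets and crypt stem cell genes, 6 rose and 3 fell without replicate 2 (8.12% and 5.26% of all genes). Over the 4 pairs, edgeR called none, DESeq2 2 (both higher) and voom 6 higher and 3 lower. By edgeR 5 had an unadjusted p under 0.05 in each direction (8.54% and 6.8% of all genes), and 1 was higher and 4 lower in all 4 pairs (8.8% and 11.1% of all genes). LGR5, the marker of crypt base stem cells, stood at 69.4, 72.4, 98.3 and 72.2 CPM in LRCs and at 114, 66.3, 126 and 93.1 CPM in non-LRCs. It was lower in LRCs in pairs 1, 3 and 4 and higher in pair 2, and fell by 0.48 (SE 0.084, adjusted p = 0.000977) without replicate 2. NKD1, a feedback inhibitor of Wnt signaling, fell by 0.39 and CTNNB1, which encodes beta-catenin, by 0.25. PTK7, a receptor used to mark stem cells of the colon, rose by 0.27 (adjusted p = 0.0255) without replicate 2. It stood at 531, 630.3, 571 and 548 CPM in LRCs and 419.9, 645, 523 and 436 CPM in non-LRCs. With 4 pairs its log2 fold change was 0.19 (edgeR adjusted p = 0.287), and in pair 2 it was lower in LRCs. LEF1 rose by 2.51 and WIF1 by 2.13, both from low levels, with LEF1 at 4.75, 2.61, 1.38 and 3.23 CPM in LRCs and at 0.903, 2.80, 0.248 and 0.490 CPM in non-LRCs. AXIN2, ASCL2 and EPHB2 did not pass, with log2 fold changes of 0.14, -0.053 and -0.19 without replicate 2.

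For the Hedgehog pathway, 5 of 12 members rose without replicate 2 and none fell (8.12% and 5.26% of all genes). Those that rose were the ligands SHH (by 0.24) and IHH (by 0.31), NRP2, HEY1 and VLDLR. By adjusted p over 4 pairs, edgeR called none of 13, DESeq2 1 and voom 6, all higher. By edgeR 5 had an unadjusted p under 0.05, all higher (8.54% of all genes), and 4 were higher in all 4 pairs and none lower (8.8% and 11.1% of all genes). GLI1, a target gene of the pathway, had 1 count in all 8 samples and SMO, its signal transducer, 22 counts, and neither could be tested. PTCH1, the receptor for the ligands and itself a target of the pathway, stood at 303, 242, 219 and 281 CPM in LRCs and at 234, 236, 214 and 226 CPM in non-LRCs, higher in LRCs in all 4 pairs without passing (log2 fold change of 0.24, adjusted p = 0.0581 without replicate 2). SUFU did not pass.

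Among the remaining lists, without replicate 2, p53 targets had 7 risen and 1 fallen of 23, keratins 4 and 1 of 12, integrins and laminins 4 and 2 of 21, complement genes 4 and 0 of 10, and matrix metalloproteinases and their inhibitors 4 and 0 of 10. Arrestin-domain proteins and FOXO targets had 5 risen and 1 fallen of 16, histones 4 and 0 of 16, mitochondrially encoded genes 4 and 0 of 13, heat shock genes 3 and 0 of 20, and ERK feedback genes and EGFR ligands 2 and 4 of 21. Of all genes, 8.12% rose and 5.26% fell. With 4 pairs edgeR called none in these lists. An unadjusted p under 0.05 by edgeR was reached in the higher and the lower direction by 6 and 1 p53 targets, 4 and 1 keratins, 3 and 2 integrins and laminins, 4 and 0 complement genes, and 3 and 0 matrix metalloproteinases and inhibitors (8.54% and 6.8% of all genes). For arrestin-domain proteins and FOXO targets the counts were 7 and 0, for histones 4 and 0, for mitochondrially encoded genes 4 and 0, for heat shock genes 1 and 1, and for ERK feedback genes and EGFR ligands 1 and 5. In each of these 10 lists DESeq2 called 0 to 4 genes and voom 3 to 7 with 4 pairs, in either direction. The integrin subunit ITGA5 stood at 81.1, 30.7, 67.9 and 77.6 CPM in LRCs and at 44.7, 32.1, 43.2 and 43.3 CPM in non-LRCs and rose by 0.79, while ITGA2 and ITGA6 fell by 0.33 each. IRS1, an adaptor of the insulin receptor and a FOXO target, stood at 38.8, 42.1, 27.8 and 34.0 CPM in LRCs and at 14.7, 39.2, 15.4 and 15.5 CPM in non-LRCs and rose by 1.13. The EGFR ligand EREG stood at 10.4, 12, 14.0 and 12.9 CPM in LRCs and at 22.1, 10.6, 19.0 and 22.8 CPM in non-LRCs and fell by 0.77. Of the complement regulators, CD55, which dissolves the C3 convertase, rose by 0.45 and was higher in LRCs in all 4 pairs, and CLU rose by 0.86. The mitochondrially encoded genes that rose were MT-ND1, MT-ND2, MT-ND3 and MT-ND5, all subunits of complex I, by 0.22 to 0.34. CD68, 1 of the markers of other cells, rose by 0.88, and PTPRC and CD3E stood at or near 0 in the same samples. In the epithelial marker list CLDN4 rose and KRT20 fell.

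Of all genes, 1832 (13.7%) had LRCs 1, 3 and 4 above non-LRCs 1, 3 and 4 without overlap and 1572 (11.7%) had them below, which are the shares to set beside single genes above whose groups did not overlap in these replicates alone.

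The LRC effect in HT55 was compared with that in SW948, the other CCS1 line, and in RKO, a colorectal cancer line of another subtype. The interaction of line and population was tested. RKO was chosen because it had the most genes called when lines were tested alone, so a large difference from it was built into the choice. SW948 had 501 of 13674 genes called (3.66%) with its own 4 pairs and RKO 4738 of 12731 (37.2%). With 4 HT55 pairs, 39 of 14707 genes differed between HT55 and SW948 (0.265%), with 8 larger in HT55 (0.0544%) and 31 smaller (0.211%). Without the replicate block none passed, with a smallest adjusted p of 0.13 and 1102 genes at an unadjusted p under 0.05. With the block and without HT55 replicate 2 the count became 472 of 14629 (3.23%), with 258 larger (1.76%) and 214 smaller (1.46%). NOS3, endothelial nitric oxide synthase, had a log2 fold change of -0.41 in HT55 and 2.63 in SW948, a difference of -3.09 (SE 0.34, edgeR adjusted p = 0.000846). SERPINI1, neuroserpin, had -0.19 in HT55 and 3.26 in SW948, a difference of -3.55 (SE 0.45, adjusted p = 0.00276). ETS1, IL6R, DUSP5, NRP1 and GULP1 also had smaller values in HT55, by 1.03 (GULP1) to 2.31 (ETS1) on the log2 scale. FLNC differed by -2.18 (adjusted p = 0.0376) in the joint fit, but with 3 to 28 counts in the SW948 samples it did not pass the filter on low counts there and has no fold change of its own in SW948. Larger in HT55 were GCNT1, HPGD, SLC6A20 and EVX1, by 0.70 to 1.21, with values in SW948 of 0.0019, 0.029, -0.11 and -0.30. Without HT55 replicate 2 the difference at NOS3 was -3.20 (adjusted p = 1.44e-05) and at SERPINI1 -3.61 (adjusted p = 8.47e-05).

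By list, neither edgeR nor DESeq2 called a difference between HT55 and SW948 with 4 pairs in the hypoxia, ATF4, interferon or cholesterol lists. Over all genes, 1710 of 14707 had an unadjusted p under 0.05 by edgeR in this comparison, in either direction. At that threshold, the effect was larger in HT55 at 4 and smaller at 2 of 32 hypoxia genes, and at 4 and 3 of 27 ATF4 genes. The counts were 5 and 2 of 31 interferon genes and 0 and 11 of 25 cholesterol genes. Without HT55 replicate 2 the effect was larger in HT55 at 4 of 32 hypoxia genes, 4 of 27 ATF4 genes and 2 interferon genes, and smaller at 1 ATF4 gene and 6 of 25 cholesterol genes, against 1.76% larger and 1.46% smaller over all genes. The medians in SW948 were 0.23 for hypoxia and 0.24 for ATF4, beside 0.33 and 0.23 in HT55, 0.013 for interferon genes beside 0.32, and 0.011 for cholesterol beside -0.17.

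Against RKO, the effect differed at 2474 of 14674 genes (16.9%), larger in HT55 at 1324 (9.02%) and smaller at 1150 (7.84%), and without HT55 replicate 2 at 2715 of 14578 (18.6%), larger at 1064 (7.3%) and smaller at 1651 (11.3%). In the cell cycle lists, the effect was larger in HT55, so less negative, at 30 of 42 S-phase genes and 25 of 54 G2/M genes with 4 pairs, and at 24 and 22 without HT55 replicate 2. In RKO the medians of these lists were -0.69 and -0.54, beside 0.027 and 0.054 in HT55. MCM2 had a log2 fold change of -0.72 in RKO and -0.020 in HT55, a difference of 0.72 (SE 0.11, adjusted p = 0.000787). Splicing factors were larger in HT55 at 17 of 29 genes (13 without HT55 replicate 2) and cholesterol genes at 13 of 25 (8 without it), with medians of -0.46 and -0.57 in RKO. The p53 targets were smaller in HT55 at 16 of 24 genes, with and without replicate 2, with a median of 0.82 in RKO, beside 0.12 in HT55. By p-value, the leading genes were INPP5D (a phosphoinositide phosphatase), CD82, GDF15, NRP1 and MYOF, each higher in RKO LRCs: GDF15, a p53 target and stress cytokine, had a log2 fold change of 4.14 in RKO and 0.17 in HT55, a difference of -3.96 (SE 0.19, adjusted p = 1.8e-08). Mitochondrially encoded genes were smaller in HT55 at 8 of 13, with a median of 0.77 in RKO. The lines were cultured and sorted separately, so line and culture cannot be told apart, and against RKO neither can subtype.

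**Figure D5:**
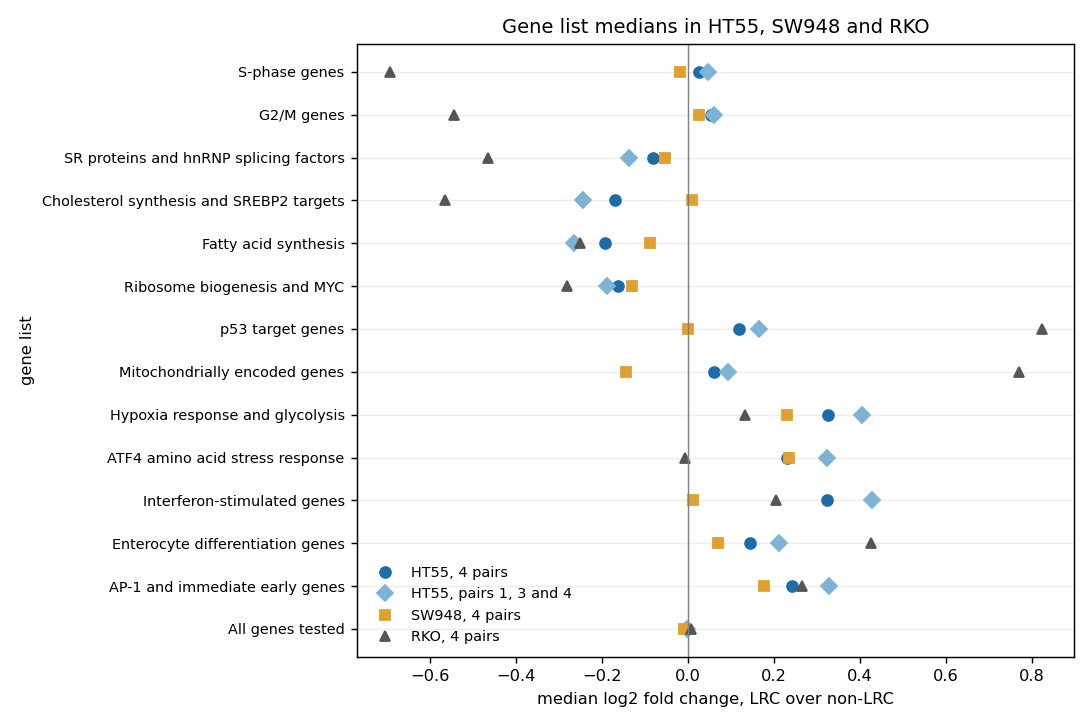
Median log2 fold change of LRCs over non-LRCs over the tested genes of 13 lists and over all genes tested, with HT55 (4 pairs, and pairs 1, 3 and 4), SW948 and RKO as separate symbols. In RKO the S-phase (-0.69) and G2/M (-0.54) medians lie far below 0 and the p53 median (0.82) far above it, while HT55 and SW948 lie nearer to 0 in these lists.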

How the data were processed

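RNA sequencing was performed on CFSE-sorted HT55 spheroid cells, with 4 samples of each population, and 8 samples each of SW948 and RKO served for the comparison of lines. RNA was extracted with a micro kit, made into TruSeq libraries and read as 50-bp single ends. The deposited files hold raw, unnormalized read counts for 54127 Ensembl genes, with the reads outside genes in separate summary counts that were left out of library sizes (6.01% to 9.54% outside genes). TopHat, HTSeq, DESeq and hg19 are named in the submitters' processing notes, without versions. The strand setting is not given in the sources used here. Reads of near-identical genes may be lost or split between copies. The 8 libraries held 14813805 to 20913455 reads on genes, and genes with few reads carry a large counting error. The study's methods describe the 4 replicates as biological, but nothing in the labels says what sets a replicate number apart.

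Samples were grouped by their labels. A gene was kept if 4 or more samples had 10 or more counts. After TMM scaling, the two-sided quasi-likelihood test of edgeR 4.0.16 (R 4.3.3) was run with the replicate number as a block, with Benjamini-Hochberg adjusted p-values over all genes tested and a threshold of 0.05. The study itself names DESeq without a block. The samples with one number were treated as pairs, because deviations from the group means had an r of 0.22, 0.51, 0.38 and 0.29 between same-numbered samples, with a mean of -0.10 between others, although for replicate 1 a sample of another number reached 0.25. Deviations within a group sum to 0, so the negative mean between others largely follows from the centering. Without replicate 2 the mean r between same-numbered samples was 0.21. Per-sample log2 CPM used a prior count of 2. The difference between lines was the interaction of line and population, with a block for each line and replicate. Alternatives were DESeq2 1.42.0, limma 3.58.1 voom with sample weights, robust fitting, other filters, no TMM, no block, all 48 sorted samples in one fit, and leaving out each replicate. Symbols were matched for 39260 genes (72.5%), and positions are those of GENCODE mapped to GRCh37.

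Named genes, whose mean log2 CPM in the first, second and last ranking below had to reach 1, were the 10 per direction with the smallest p-values and one direction in all 4 pairs, the 5 per direction with the smallest p-values without replicate 2, the 3 members of each of 30 lists with the smallest p-values, markers the study names, the 5 genes with the smallest p-values per line comparison, and ABCG1, SLC29A2, ARRDC3, MPZL3, SRSF2 and SRSF1. Other list members, and SLC2A1, VEGFA, NDRG1, HMGCS1, MKI67, MCM2, CDKN1A, IFIT1, CEACAM7, LDHA and CDKN1B, were chosen after their values were seen. The cell cycle lists came from Seurat 5.3.0 and the other lists were written by hand. Lists share members, and a shared gene counts in each of its lists. Examples are MXI1 (cell cycle exit and hypoxia), VLDLR (Hedgehog and ATF4) and SESN2 (ATF4 and p53). Others are KLF4 (enterocyte and immediate early genes) and POLR1B (S phase and ribosome biogenesis). The members, the lists, the omission of replicate 2 and RKO as a comparison line were chosen with earlier results of these data known. Some items are not reported here. No column of the count files was left unused (0).

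On simulated counts with changes of 1 log2 unit, the test with 4 pairs recovered 92.9% of the changed genes with 6.63% false calls, and the test with pairs 1, 3 and 4 recovered 92.2% with 3.80% false calls. For changes of 0.5 the tests recovered 66.2% and 66.0%. These shares hold for the simulated counts only. In the measured counts, 1 of the 4 pairs did not share the differences of the other pairs, and the test with 4 pairs called 0 of 13391 genes. The shares therefore do not tell how many changes that test missed in the measured counts, and its 0 calls are not to be read as an absence of changes.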

Additional observations from a re-analysis of the deposited data

Results flagged for a closer look

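In groups of 4 samples, 40 values stood far from the other 3 by Dixon's criterion, and 31 of them were in replicate 2. The criterion marks about 1 in 20 groups by chance, and 350 groups were examined. Some of the genes examined were chosen for small p-values without replicate 2 or after their values were seen. For those genes the chance rate does not apply. The part of replicate 2 in the results was not tested beyond the values given with and without it.

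In LRC 2, the CPM was below that of the other LRCs for ANGPTL4 (1.79), HOXA-AS3 (5.30), ADM (20.2), SQLE (83.5), TFF2 (3.09), CD55 (381), TIMP2 (70.4), EGLN3 (14.9) and CD82 (80.5), and above it for CLU (80.1) and AXIN2 (829.9). In non-LRC 2, the CPM was above that of the other non-LRCs for SLC6A20 (13.0), SLC2A3 (96.0), SLC26A3 (409), H2BC21 (97.9), MYLIP (45.4), MUC13 (931), THBS1 (155), SESN2 (5.79), IRS1 (39.2), MT-ND3 (2722), MT-ND2 (7176), CD68 (23.9) and CEACAM7 (4.20), and below it for SLC9A3 (20.8), ITGA5 (32.1), NOS3 (34.6) and SERPINI1 (60.2). The mean log2 CPM of the hypoxia list was low in LRC 2 (6.34), that of the ERK feedback and EGFR ligand list low in non-LRC 2 (5.64) and that of the mitochondrially encoded genes high in non-LRC 2 (12).

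Outside replicate 2, values stood apart for ANXA13 (11.2 CPM) and KRT23 (501 CPM) in LRC 1, for VLDLR (3.43 CPM), NHP2 (30.7 CPM) and POLA1 (38.9 CPM) in non-LRC 1, for MUC13 (809.6 CPM) and LGR5 (98.3 CPM) in LRC 3, and for MMP24 (1.39 CPM) in LRC 4. The mean log2 CPM of the Hedgehog list was low in LRC 3 (3.56).

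The LRC effect differed between HT55 and SW948 (log2 fold change in HT55 minus that in SW948, edgeR interaction) at GCNT1 (0.70, adjusted p = 0.0311), HPGD (1.06, adjusted p = 0.0450), SLC6A20 (1.21, adjusted p = 0.0198), EVX1 (0.99, adjusted p = 0.0198), FLNC (-2.18, adjusted p = 0.0376, with no fold change of its own in SW948, where it did not pass the filter on low counts), DUSP5 (-1.74, adjusted p = 0.0232), NOS3 (-3.09, adjusted p = 0.000846), SERPINI1 (-3.55, adjusted p = 0.00276), ETS1 (-2.31, adjusted p = 0.00559), IL6R (-1.76, adjusted p = 0.0198), GULP1 (-1.03, adjusted p = 0.0198) and NRP1 (-1.51, adjusted p = 0.0310). It differed between HT55 and RKO, in the same sense, at INPP5D (-5.24), CD82 (-2.94), GDF15 (-3.96), NRP1 (-1.90) and MYOF (-1.74), with adjusted p-values of 1.76e-08 to 1.77e-07.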

How the results depend on the processing

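Of the 8 HT55 samples, edgeR called 0 genes with 4 pairs and also without the replicate block (1005 genes at an unadjusted p under 0.05), with robust fitting (2063), with at least 10 counts in every sample (1913) and without TMM (2132). DESeq2 called 217, limma voom 1620, the fit without a filter 919 and the fit of all 48 sorted samples 695. Leaving out 1 replicate gave 0 to 1763 calls, the highest without replicate 2. Without replicate 2, leaving out the block gave 808 calls, DESeq2 955, voom 4591 and no TMM 1690, the last with 863 higher, against 1070 of 1763 with TMM. Of the 217, 1620 and 695 genes called by DESeq2, voom and the fit of 48 samples, 217, 1408 and 662 were among the 1763. Requiring a difference of 0.1 in each pair reduced the 2671 genes with one direction in all 4 pairs to 775. The cause of these differences between settings was not tested.

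For SW948, the interaction called 39 genes, 0 without the replicate block (1102 at an unadjusted p under 0.05), 72 with DESeq2, 1 with at least 10 counts in every sample, 254 with all 48 samples and 2 to 472 with 1 HT55 replicate left out. Over the 5 leading genes, 13 values of the difference from SW948 under an alternative no longer passed and 25 did. NOS3, SERPINI1, ETS1, IL6R and GULP1 did not pass without the replicate block, SERPINI1 with DESeq2, ETS1, IL6R and GULP1 without HT55 replicate 3, and IL6R and GULP1 without HT55 replicate 4 or with at least 10 counts in every sample. For the 5 leading genes of RKO, all 39 values passed. For RKO it called 2474, 1834 without the replicate block, 3435 with all 48 samples and 1488 to 2715 with 1 HT55 replicate left out.

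The difference changed sign at 6 named genes, none of which passed. The HT55 log2 fold change of MUC2 went from 0.016 to -0.057 with voom, -0.0065 without TMM, -0.12 to 0.096 with 1 replicate left out (-0.0021 without replicate 2, where it was -0.0068 without the block, -0.013 with DESeq2, -0.072 with voom and -0.036 without TMM). The HT55 log2 fold change of MCM2 went from -0.020 to 0.015 with voom and to -0.052 to 0.038 with 1 replicate left out, the highest without replicate 2, where it was 0.041 without the block, 0.032 with DESeq2, 0.042 with voom and 0.0068 without TMM. The HT55 log2 fold change of CDKN1B went from 0.038 to -0.0093 with voom, -0.016 to 0.078 with 1 replicate left out and, without replicate 2, -0.052 with voom and -0.024 without TMM. Without replicate 2 and with voom, MYC was at 0.012 and ASCL2 at 0.0035, and INPP5D was at -0.042 to 0.065 with 1 replicate left out, the lowest without replicate 1. Of the other values of single genes, 1374 kept their sign and their side of the threshold, and 855 kept their sign and passed where the value with 4 pairs did not.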
